A study of Danio rerio with 9 samples.

Results

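The collagen genes of the zebrafish were examined in RNA from whole embryos in which the hypusine pathway had been targeted. Rows of the gene table were taken when the gene symbol began with "col", a type number, the letter a and a chain number, which selected 57 of 24614 genes. Of these, col4a3bpa and col4a3bpb encode ceramide transfer proteins and not collagen chains, so 55 collagen genes were described. They were grouped by the type number into 9 fibrillar genes (types I, V and XXIV), 16 genes of cartilage and notochord types (II, VIII, IX, X, XI and XXVII), 12 of basement membranes and their anchorage (IV, VII, XV and XVIII), and 18 others. Types II, XI and XXVII are also fibrillar collagens but were counted with cartilage and notochord, so the fibrillar class below means types I, V and XXIV only.

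Embryos had been injected with 1 of 3 morpholinos, named control, dhps and eif5a1/2, and each group had 3 libraries of polyA RNA from the whole body. Morpholinos are antisense oligomers that block the splicing or translation of a transcript. The sources used here do not state which of these applied, nor the dose, the strain or the number of embryos per library. The series places the harvest at 24 h post fertilization, while the treatment note places it 24 h after the morpholino. No label says that the libraries of a group came from separate clutches, so the p-values measure the spread between these samples, which may be technical. In whole-body RNA, fewer cells of a type and less RNA per cell cannot be told apart.

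Collagen chains consist of long repeats of glycine followed by residues that are often proline or hydroxyproline, and chains wind around each other into a rope-like helix. Fibrillar collagens form the cables of skin and connective tissue, type IV forms the sheet of basement membranes, and types II, IX and XI build the fibrils of cartilage and of the notochord sheath in fish. The enzyme encoded by dhps carries out the first step in making hypusine, a modified lysine found in eIF5A, a translation factor known to help ribosomes past runs of proline. RNA levels do not measure that step: the values below are amounts of transcript, and no protein was measured.

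The libraries held 15952644 to 17482536 estimated read counts. The targeted transcripts were checked first. In the libraries labelled eif5a1/2, eif5a stood at 238, 213 and 229 CPM (read counts scaled to a common library size and composition) against 1467, 1168 and 1454 in control. The dhps transcript stood at 10.3, 9.60 and 8.27 CPM in the libraries labelled dhps against 13.01, 14.7 and 15.7 in control. Both differences passed edgeR's quasi-likelihood test with Benjamini-Hochberg adjustment over 17031 genes (log2 fold change -2.59 ± 0.15 (SE), adjusted p = 0.000188, and -0.62 ± 0.12, adjusted p = 0.0485). The level of eif5a2 in eif5a1/2 libraries overlapped that in control. Defining markers of notochord, epidermis, fin fold, neural crest, muscle and endothelium were all detected, as whole-body RNA would hold.

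Collagens took up 0.194% to 0.414% of the reads of a library. Of the 55 genes, 43 had enough reads to be tested; the other 12 each had at most 80 reads summed over the 9 libraries and include both type X genes, whose mammalian counterpart marks mature cartilage, and col4a1. Since tests of low genes depend on the group in which they are high, counts over the 43 are given as descriptions beside the same count over all genes.

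On the length-normalized scale of the deposited TPM (transcript abundance relative to the library's total), the collagen RNA of the embryo was dominated by a few genes. The 8 highest collagens of each library held 66.5% to 74.5% of its collagen TPM. The gene col1a1a, which encodes an alpha 1 chain of type I collagen, was the highest of all in each of the 9 libraries. In control, the mean level was 52.6 ± 26.5 TPM for col1a1a, 41.2 ± 13.1 TPM for col1a1b and 33.2 ± 14.5 TPM for col1a2, the other type I chains (SD, n = 3). Next to them stood col9a1b, a type IX chain that decorates type II fibrils, at 36.9 ± 16.8 TPM, and col2a1a, the type II chain itself, at 36.4 ± 7.5 TPM. These means overlap within their spread, so the order after col1a1a is not resolved.

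**Figure D1:**
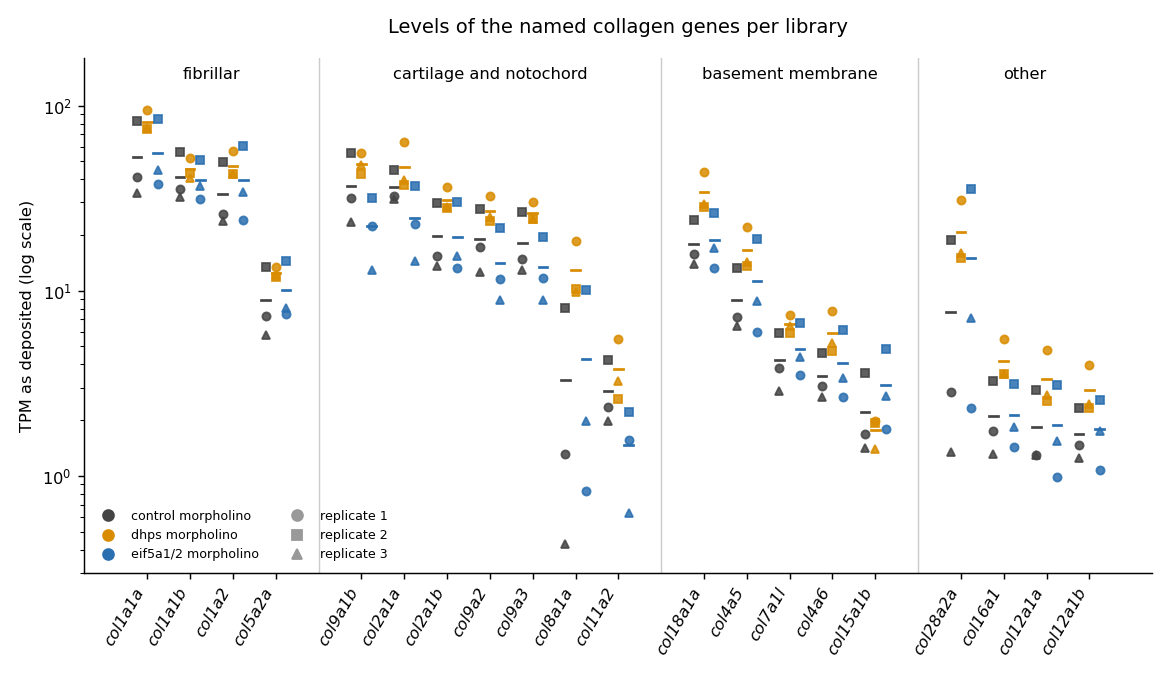
Deposited TPM (log scale) of the collagen genes named in the text in each of the 9 libraries; colours give the group, symbols the replicate number and short bars the group mean. The type I genes, col9a1b and col2a1a form the upper band, and replicate 2 of control and of eif5a1/2 lies above the other libraries of its group for most of these genes.

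The make-up of collagen RNA differed between groups in its cartilage and notochord share. Genes of this class held 44.3%, 42.0% and 43.4% of collagen TPM in the control libraries. They held 42.0%, 41.1% and 41.9% in dhps libraries and 39.1%, 34.2% and 28.8% in eif5a1/2 libraries. Each eif5a1/2 library lay below all 6 others. With 3 libraries against 3, an exact two-sided permutation test cannot go below 0.10, so no p below that is available for such a share. The fibrillar share was 40.6% to 41.4% in control, 35.8% to 39.8% in dhps and 42.9% to 50.5% in eif5a1/2 libraries, and these ranges do not overlap. Basement membrane genes held 10.5% to 11.9%, 12.7% to 13.7% and 12.3% to 14.8%, so both morpholino groups lay above control and overlapped each other. Shares add up to the whole, so a lower share of 1 class raises the others.

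After eif5a1/2 morpholino, 6 genes of the type II, IX and XI fibril (col2a1a, col2a1b, col9a1b, col9a2, col9a3 and col11a2) read lower in all eif5a1/2 libraries than in any control library. The groups overlapped for the other members, col9a1a, col11a1a and col11a1b. None of the 43 tested collagens passed the test in the fit over all 9 libraries. In that fit 26 of 17031 genes passed (0.153%). In the authors' deposited table the q-values were 0.288 for col2a1a, 0.265 for col9a1b, 0.344 for col9a2, 0.319 for col9a3 and 0.299 for col11a2. By the less strict measure of groups that do not overlap in CPM, 10 of 43 collagens were separate (23.3%), each lower in eif5a1/2, against 12.4% of all genes in either direction and 6.65% lower. Before adjustment, 7 collagens had p under 0.05 in edgeR's test, all lower, namely col11a2, col1a1b, col2a1a, col5a1, col9a1b, col9a2 and col9a3, against 9.1% of all genes in either direction. DESeq2 called 3 collagens, all type IX genes, and limma-voom called 0. The share of all genes called by these methods is not given here. Their counts, here and for the other comparisons, are therefore descriptions only. The median log2 difference was -0.35 over the 11 tested cartilage and notochord genes, -0.16 over the fibrillar genes, -0.05 over the basement membrane genes, -0.15 over the other collagens and 0.01 over all genes. The cartilage and notochord median moved to -0.19 without control replicate 2, to -0.22 without eif5a1/2 replicate 3 and to -0.72 without eif5a1/2 replicate 2. It was -0.14 in the 5 libraries in which long genes read high (described further on), where eif5a1/2 replicate 2 alone stands against control replicate 2. It was -0.57 in the other 4, which are replicates 1 and 3 of both groups, and -0.10 with no filter on low counts.

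The replicate numbers were examined for this comparison, though no label says that they pair the groups. Control and eif5a1/2 libraries with the same number deviated from their group means together, with a correlation across genes of 0.403, 0.760 and 0.318 for numbers 1, 2 and 3. Libraries numbered 1 and 3 also correlated across these groups, at 0.597 and 0.260, so the numbers are not singled out by this check. In both groups long genes read higher in replicate 2 and lower in replicates 1 and 3 (described further on). A block by number therefore also separates libraries by that property, and pairing and this property cannot be told apart. When the 6 libraries were fitted with the replicate number as a block, an analysis added after seeing the data, 5 of 40 collagens fell and 0 rose, against 1.17% of 15845 genes that fell, 1.04% that rose and 2.22% that changed. All 5 belong to the cartilage and notochord class, of which 10 genes were tested in this fit. The same block in a fit over all 9 libraries called 0 collagens in this comparison. A fit of only the 2 groups without the block also called 0.

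The first of these is col2a1a, the type II chain. Its level was 357, 310 and 396 CPM in control, 373, 252 and 256 in dhps and 255, 203 and 125 in eif5a1/2 libraries. All eif5a1/2 values lay below all control values, and the lowest of the 9 was eif5a1/2 replicate 3. The log2 difference from control was -0.87 ± 0.26 (SE; adjusted p = 0.327) without the block and -0.91 ± 0.19 with it (edgeR, adjusted p = 0.0312). That call rests on pair 3, without which the adjusted p was 0.148. Its duplicate col2a1b stood at 156, 191 and 159 CPM in control and at 136, 154 and 123 in eif5a1/2 libraries. These groups just failed to overlap, and the difference of -0.29 ± 0.14 was not called in either fit.

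Of the 4 tested type IX genes, 3 fell in the blocked fit. Their products join into molecules that sit on the surface of type II fibrils. The remaining gene, col9a1a, differed from control by -0.12 ± 0.31 with the block (edgeR, adjusted p = 0.887), and 1 of its 3 pairs was lower. The gene col9a1b read 158, 177 and 136 CPM in control, 151, 133 and 142 in dhps and 113, 81.1 and 51.5 in eif5a1/2 libraries. The eif5a1/2 libraries were all below the other 6, which overlapped one another. The difference from control was -0.94 ± 0.24 (adjusted p = 0.246) in the fit over all libraries and -0.996 ± 0.16 with the block (edgeR, adjusted p = 0.00882). Another type IX gene, col9a2, read 103, 104 and 87.2 CPM in control, 105, 87.6 and 89.4 in dhps and 70.2, 65.9 and 42.0 in eif5a1/2 libraries. Again no eif5a1/2 library reached the lowest of the others. The difference from control was -0.72 ± 0.19 (edgeR, adjusted p = 0.246) in the fit over all libraries. With the block it was -0.74 ± 0.13 (edgeR, adjusted p = 0.0123).

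For col9a3, which like col11a2 was named after its values had been seen, the levels were 84.2, 95.4 and 84.0 CPM in control, 92.6, 85.3 and 82.0 in dhps and 66.6, 56.3 and 40.0 in eif5a1/2 libraries. The difference from control was -0.70 ± 0.17 (edgeR, adjusted p = 0.217) in the fit over all libraries. The blocked difference was -0.72 ± 0.14 (edgeR, adjusted p = 0.0213), and without pair 3 the adjusted p was 0.0597. The type XI chain col11a2, which lies in the core of type II fibrils, showed the widest change: 31.5, 36.2 and 30.4 CPM in control against 21.3, 15.05 and 6.65 in eif5a1/2 libraries. Its dhps values were 39.8, 21.4 and 25.9 CPM, which overlapped control and ended just above the highest eif5a1/2 value. The difference from control was -1.20 ± 0.36 (edgeR, adjusted p = 0.333) in the fit over all libraries. With the block it was -1.29 ± 0.22 (edgeR, adjusted p = 0.0111). Without each pair in turn, col9a1b, col9a2 and col11a2 passed every time, and the number of collagens called was 8, 6 and 3. These fits have few libraries for the blocked model, and adjusted p could fall with less data. For col11a2 it went from 0.0111 to 1.4e-07 without pair 1 (edgeR), so passing these fits does not show that a call is stable.

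**Figure D2:**
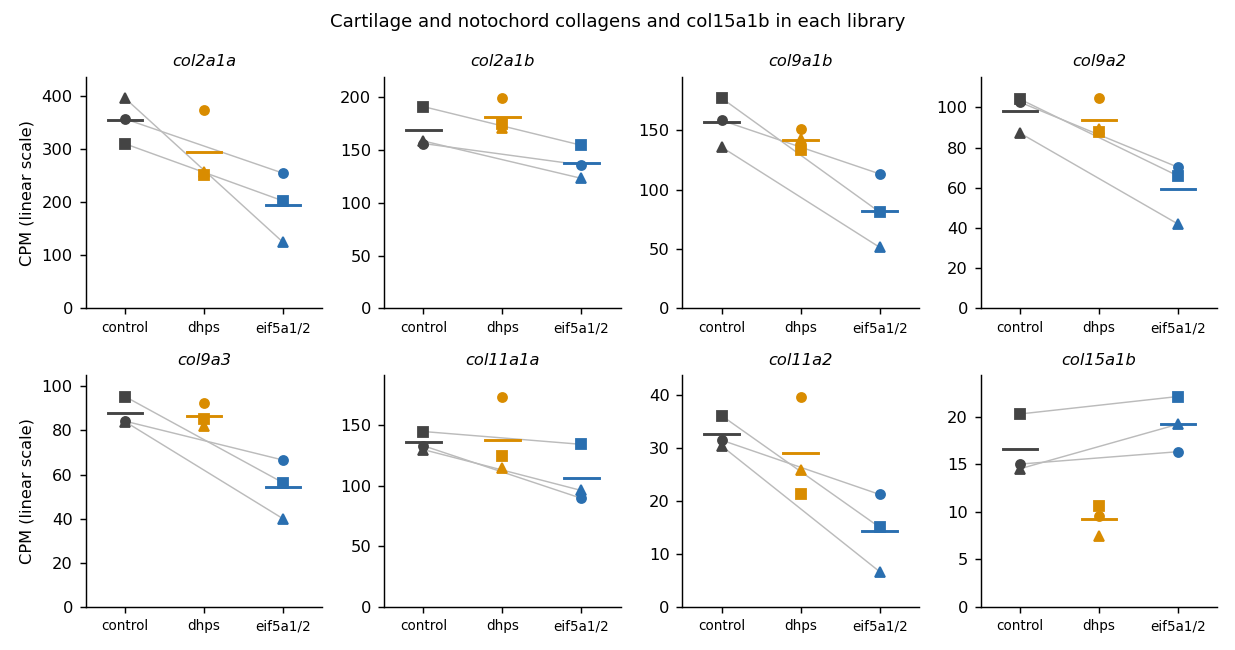
CPM (linear axis from 0) of 7 cartilage and notochord collagens and of col15a1b in each library, with bars for group means and grey lines joining control and eif5a1/2 libraries of the same replicate number. For col2a1a, col9a1b, col9a2, col9a3 and col11a2 all 3 lines go down, and for col15a1b the 3 dhps points lie below the other 6.

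Not every gene of the class was lower. The second type XI alpha 1 duplicate, col11a1b, and col8a1a, a short-chain network collagen needed for notochord formation in zebrafish, had differences from control of 0.22 ± 0.46 and 0.11 ± 0.78, whose errors exceed the differences. The gene col11a1a read 133, 145 and 130 CPM in control and 89.6, 134 and 96.1 in eif5a1/2 libraries, so the groups overlapped.

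In the fit over all 9 libraries, no marker of any list passed the test for eif5a1/2 against control, beside 0.153% of all genes. Of 8 tested notochord markers, 0 had groups that did not overlap, beside 12.4% of all genes. The summed levels of several lists did differ, and such sums weigh the highest genes most. The 9 notochord markers together stood at 81.4 to 83.6 CPM in control, 80.4 to 83.1 in dhps and 67.4 to 77.7 in eif5a1/2 libraries. The eif5a1/2 sums lay below the others without overlap. Of the 8 tested, 6 had a negative difference from control and 2 a positive one, with a median of -0.20. No notochord marker was at 0 in every library, but cavin1b had 0 reads in control replicate 3. In the blocked fit 1 of 7 tested notochord markers fell, epyc, beside 1.17% of all genes. The median difference of the 7 was -0.32. The highest was that of foxa3, at 0.36 ± 0.20 (edgeR, adjusted p = 0.358). Fin fold markers (6 genes) summed to 54.7 to 77.4 CPM in control and 41.8 to 60.3 in eif5a1/2 libraries, with a negative difference for 6 of 6. Muscle and somite markers (9 genes) summed higher, at 109 to 116 CPM in control against 128 to 133, without overlap. Yet 5 of the 9 had a negative difference and their median was -0.15, so they did not rise as a set. Endothelial markers (5 genes) summed to 43.3 to 48.4 against 48.8 to 57.8, also without overlap, with a positive difference for 5 of 5. Neural crest and cartilage precursor markers (11 genes) summed to 234 to 254 CPM in control and 249.9 to 270 in eif5a1/2 libraries, and epidermal markers (9 genes) overlapped. The part of cell type make-up in the lower collagen levels was not tested.

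After dhps morpholino, 0 of 43 collagens passed edgeR's test, against 1.33% of all genes (226 of 17031). Before adjustment, 8 collagens had p under 0.05, with 4 in each direction (19.7% of all genes), DESeq2 called 2 and limma-voom 0. Groups were separate for 12 of 43 collagens (27.9%), 6 in each direction, near the 30.9% of all genes (15.2% higher and 15.7% lower). The median difference was 0.02 over the 43 collagens and 0.00 over all genes. In contrast to eif5a1/2, the median of the cartilage and notochord class was -0.02, with col9a1b at -0.14 ± 0.24, col9a2 at -0.06 ± 0.19, col9a3 at -0.02 ± 0.17 and col11a2 at -0.17 ± 0.35.

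The lowest p belonged to col15a1b, a type XV collagen of the basement membrane zone. It read 15.02, 20.3 and 14.5 CPM in control, 9.58, 10.6 and 7.43 in dhps and 16.3, 22.1 and 19.2 in eif5a1/2 libraries. The 3 dhps values lay below all 6 others. The difference of dhps from control was -0.85 ± 0.19 (edgeR, adjusted p = 0.0657), while the authors' deposited table gives -0.86 with a q-value of 0.00746. The other gene with a q-value under 0.05 in the authors' deposited table was col1a1b (-0.45, q = 0.00249).

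The type I chain col1a1b stood at 378, 377 and 392 CPM in control, 299, 284 and 257 in dhps and 337, 274 and 309 in eif5a1/2 libraries. Both morpholino groups lay below control without overlap. The differences were -0.45 ± 0.13 (edgeR, adjusted p = 0.125) for dhps and -0.32 ± 0.13 (adjusted p = 0.476) for eif5a1/2, and these 2 comparisons share the control libraries. Its partners did not follow: col1a2 read 257, 306 and 270 CPM in control, 297, 257 and 246 in dhps and 242, 296 and 265 in eif5a1/2 libraries. For col1a1a the levels were 430, 550 and 409, then 538, 487 and 473, then 401, 451 and 372 CPM. For both genes the control range overlapped each morpholino group. The type V chain col5a2a, which helps to start type I fibrils, ranged over 78.4 to 100.1 CPM in control, 84.9 to 86.6 in dhps and 75.6 to 88.9 in eif5a1/2 libraries.

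Between the morpholino groups, 1 of 43 collagens differed, against 1.83% of all genes (311 of 17031) and 0.975% higher in eif5a1/2. This was col15a1b, higher in eif5a1/2 than in dhps libraries by 1.06 ± 0.19 (edgeR, adjusted p = 0.0257). Leaving out dhps replicate 1, 2 or 3 or eif5a1/2 replicate 3 ended the call (edgeR, adjusted p = 0.119, 0.0622, 0.123 and 0.109), as did scaling by library totals alone (0.89, adjusted p = 0.357). Groups did not overlap for 16 of 43 collagens (37.2%), 14 of them lower in eif5a1/2, against 20.9% of all genes, 10.8% higher and 10.1% lower. Before adjustment, 12 collagens had p under 0.05, 1 of them higher and 11 lower (14.6% of all genes), while DESeq2 called 6 collagens and limma-voom 1. The median difference was -0.66 over the cartilage and notochord class, -0.27 over the basement membrane class, -0.45 over the other collagens, -0.02 over the fibrillar class and 0.00 over all genes. Over all tested collagens the median was -0.38. It was -0.16 with the length slope of each library (described further on) as a covariate. In the libraries in which long genes read high, with eif5a1/2 replicate 2 alone against dhps, it was -0.05. The cartilage and notochord median was -0.60 and -0.54 in these 2 fits. Without dhps replicate 1 the cartilage and notochord median was -0.39. This comparison shares the eif5a1/2 libraries with the one against control.

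Genes of other classes came close to the threshold between the morpholino groups. The gene col18a1a, whose protein is the source of endostatin, read 166, 160 and 170 CPM in control, 252, 186 and 186 in dhps and 142, 142 and 142 in eif5a1/2 libraries (difference between morpholinos -0.55 ± 0.14, edgeR, adjusted p = 0.0897). The 3 groups were ordered without overlap. A fibril-associated collagen of the other class, col16a1, read 22.5, 26.3 and 19.3 CPM in control, 38.1, 28.3 and 27.01 in dhps and 18.7, 20.4 and 18.8 in eif5a1/2 libraries (-0.69 ± 0.16, edgeR, adjusted p = 0.0698). The authors' deposited table has q-values of 0.0499 and 0.0239 for col18a1a and col16a1 in this comparison.

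The basement membrane network genes had ranges that overlapped between groups in part. The type IV chain col4a5 read 88.5, 102 and 92.1 CPM in control, 145, 104 and 105 in dhps and 74.5, 117 and 85.7 in eif5a1/2 libraries, and col4a6 read 49.3, 47.5 and 49.6, then 68.0, 47.6 and 50.5, then 43.5, 50.7 and 43.6 CPM. Both genes are neighbours in the NCBI gene table, dhps replicate 1 was highest for both, and neither passed in any comparison. The gene col7a1l, named after the anchoring fibril collagen, lay between 47.3 and 57.3 CPM over the 9 libraries. The network's most widespread chains in mammals are encoded by the pair col4a1 and col4a2, also neighbours here: col4a1 had 0 to 24 reads per library and was not tested, and col4a2 stood at 3.63 to 9.98 CPM.

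**Figure D3:**
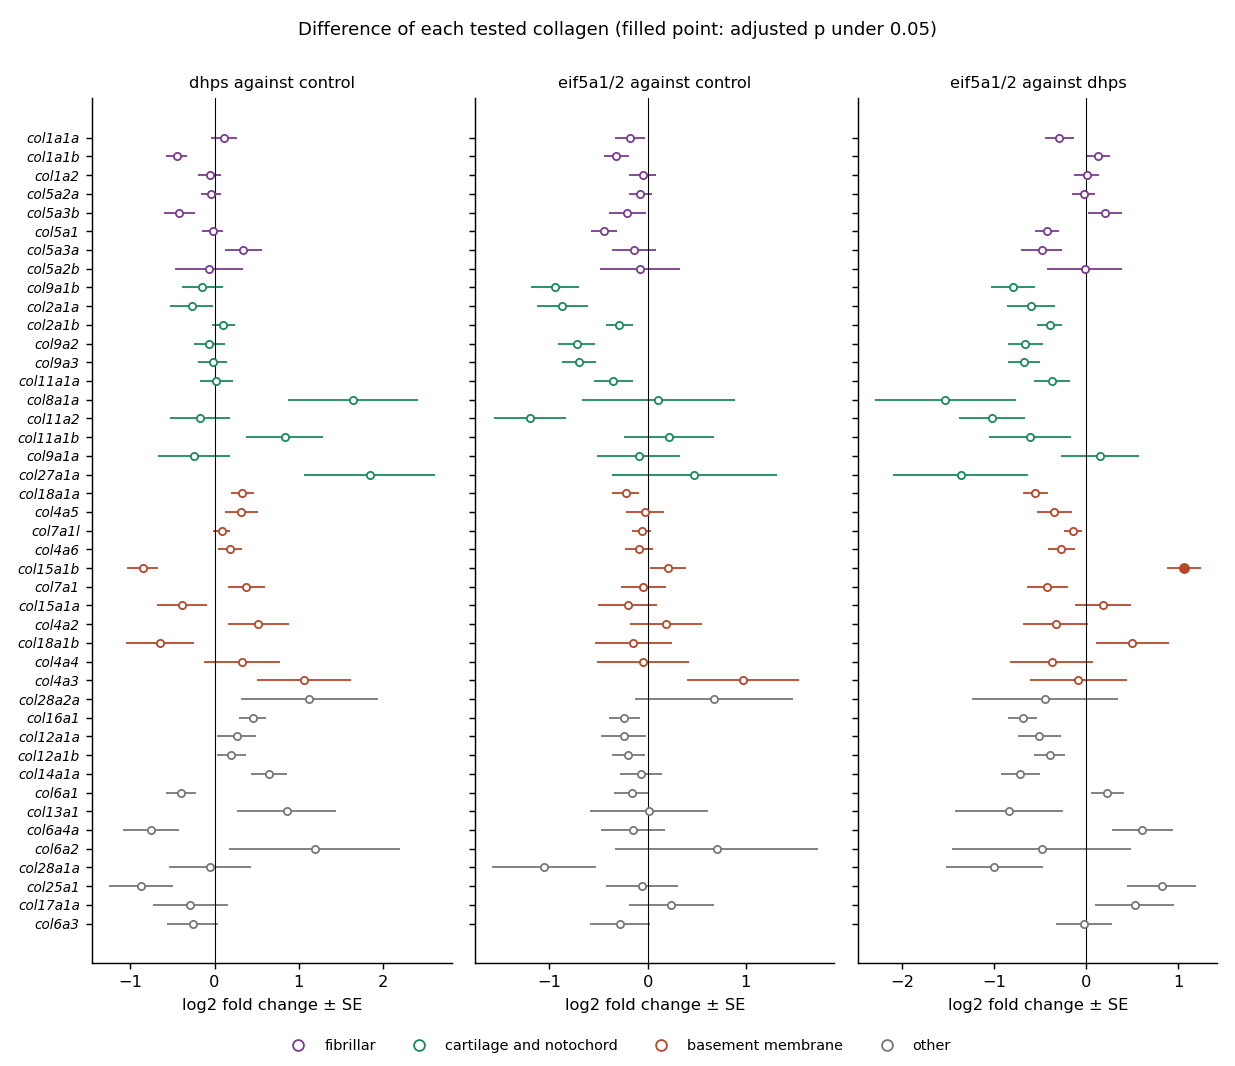
Log2 fold change of each of the 43 tested collagens in the 3 comparisons, with bars for the standard error and colours for the class; the scales of the horizontal axes differ between panels. The filled point is col15a1b in eif5a1/2 against dhps, and col2a1a, col2a1b, col9a1b, col9a2, col9a3, col11a1a and col11a2 lie left of 0 in both comparisons with eif5a1/2.

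In the remaining class, the fibril-associated genes col12a1a and col12a1b, whose proteins bind type I fibrils, stood at 24.7, 36.0 and 29.9 and at 24.0, 24.3 and 23.6 CPM in control. Against control, neither passed the test in either morpholino group. The type XXVIII gene col28a2a varied widely, at 20.02, 83.8 and 11.03 CPM in control, 119, 66.0 and 67.9 in dhps and 16.7, 128 and 39.9 in eif5a1/2 libraries. Its values within a group spanned more than the distance between group means.

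That spread went with a property of the libraries. In 5 libraries (control replicate 2, the 3 dhps libraries and eif5a1/2 replicate 2) long genes read higher than short genes relative to the mean of the 9, and in the other 4 they read lower. Control and eif5a1/2 libraries fall on both sides, while all dhps libraries fall on the first. The same 5 and 4 libraries were set apart by the first principal component, the widest axis of variation over all tested genes. It held 62.6% of the variance of log2 CPM. The part of the length property in the dhps comparisons was not tested beyond the fits given above and in the closing section. Tested collagens are long: their median length stood at the 91.2 percentile of genes with a length estimate. Of the 43, 8 were higher in each of the 5 libraries than in any of the other 4, and 0 were lower, against 15.5% and 14.8% of all tested genes. Among the 8, col28a2a ranged over 66.0 to 128 against 11.03 to 39.9 CPM. For col8a1a, which at the 47.7 percentile is not a long gene, the ranges were 19.3 to 38.0 against 1.86 to 5.90 CPM. The 5 genes that fell in the blocked fit could not be among these 8, since eif5a1/2 replicate 2 read below every control library for each. Their absence therefore does not bear on this property.

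**Figure D4:**
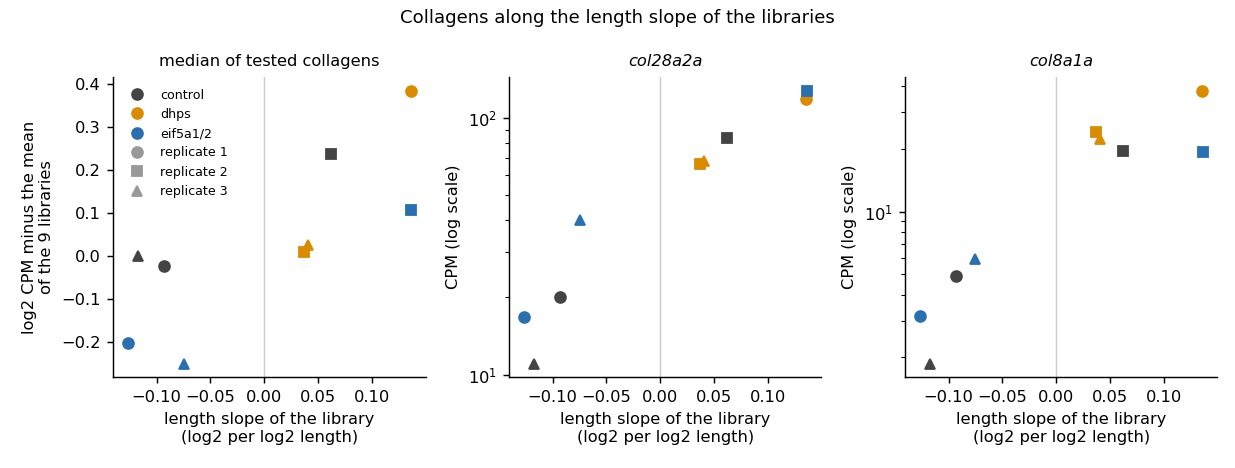
Median deviation of the tested collagens from the mean of the 9 libraries (log2 CPM), and CPM of col28a2a and col8a1a (log scale), against the slope of each library's deviations on gene length; each point is 1 library. For col28a2a and col8a1a the 5 libraries right of 0 lie above the 4 left of it, in every group that has both kinds.

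Genes that make, join and break down collagen were examined as lists. Of 43 tested folding and secretion genes, 0 passed in any comparison. Of all genes, 1.33% passed in dhps against control, 0.153% in eif5a1/2 against control and 1.83% in eif5a1/2 against dhps. At such shares a list of this size can hold no call without differing from other genes. The blocked fit of eif5a1/2 against control called 1 of 40, higher, beside 1.04% of all genes. This was p4ha1b, a subunit of the prolyl hydroxylase that modifies collagen, higher by 0.74 ± 0.16 (edgeR, adjusted p = 0.0358, and 0.0719 without pair 3). The collagen chaperone serpinh1b stood at 248 to 334 CPM in control, 294 to 350 in dhps and 237 to 302 in eif5a1/2 libraries. Of 16 processing and crosslinking genes, 1 fell in dhps against control and 1 in eif5a1/2 against dhps, beside 0.699% and 0.851% of all genes. The first was loxl3b, a lysyl oxidase-like crosslinking enzyme, at 12.9, 15.8 and 12.4 CPM in control and 7.64, 7.42 and 7.43 in dhps libraries (-0.88 ± 0.13, edgeR, adjusted p = 0.014). The second was loxl2a, of the same family, at 14.7, 12.005 and 11.7 CPM in dhps and 7.89, 7.501 and 8.10 in eif5a1/2 libraries (-0.71 ± 0.13, edgeR, adjusted p = 0.0276). Neither pair of groups overlapped, yet 5 and 2 of 9 fits that left out 1 library kept these calls. In the blocked fit against control, loxl3b also fell in eif5a1/2, by 0.60 on the log2 scale (edgeR, adjusted p = 0.0484), a call lost without pair 2 (0.311) or pair 3 (0.073). It was 1 of 15 genes of this list tested there, beside 1.17% of all genes that fell.

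Among 16 tested breakdown genes, 2 rose in dhps against control (0.628% of all genes did) and 1 fell in eif5a1/2 against dhps (0.851% did). The gene mmp2 changed in both comparisons. This gene encodes gelatinase A, an enzyme that cuts denatured and type IV collagen. It read 64.1, 77.2 and 62.4 CPM in control, 134, 104 and 113 in dhps and 40.8, 50.3 and 45.1 in eif5a1/2 libraries. The 3 groups did not overlap, with dhps highest and eif5a1/2 lowest. It was higher in dhps than in control by 0.78 ± 0.14 (edgeR, adjusted p = 0.0326, kept in 3 of 9 fits without 1 library) and lower in eif5a1/2 than in dhps by 1.36 on the log2 scale (SE 0.14, adjusted p = 0.00161, kept in 9 of 9). Also called was mmp13b, a collagenase gene with 1, 1 and 0 reads in control and 15, 13 and 12 in dhps libraries (edgeR, adjusted p = 0.017, kept in 3 of 9), for which no fold is given. It entered the test through the dhps group, in which it is high, so its place in the count of 2 is a description only. Under a stricter filter it was not tested, and DESeq2 gave it no adjusted p. In the blocked fit of eif5a1/2 against control, 2 of 14 tested breakdown genes fell, beside 1.17% of all genes. These were mmp2, by 0.57 on the log2 scale, and mmp9, which encodes gelatinase B, by 1.38 (edgeR, adjusted p = 0.0226 and 0.028). Both calls ended without pair 2 (adjusted p = 0.0949 and 0.214).

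Of 52 tested matrix partners, 2 fell in eif5a1/2 against dhps (0.851% of all genes did): vcana, which encodes a versican, a large proteoglycan (-0.89 ± 0.17, edgeR, adjusted p = 0.0384), and lamb2, a laminin chain (-0.62 ± 0.13, adjusted p = 0.0459), each kept in 3 of 9 fits without 1 library. In the blocked fit against control, epyc, a small proteoglycan that is also on the notochord marker list, fell by 1.02 on the log2 scale (edgeR, adjusted p = 0.0109), from 9.37, 13.9 and 6.37 CPM in control to 5.03, 6.75 and 2.89. The groups overlap, but each eif5a1/2 library was below the control library of the same number. The blocked fit also called fras1, a basement membrane gene of the fin fold, and and1, a fin fold fibre gene, which fell by 0.53 and by 0.65 on the log2 scale (edgeR, adjusted p = 0.0381 and 0.0454), and each lost its call in 2 of the 3 fits without 1 pair. With epyc, 3 of 51 tested matrix partners fell in the blocked fit, beside 1.17% of all genes. None of the 14 tested receptor genes and none of the 22 regulators passed in any of the 3 comparisons. These lists are short beside the 1.33%, 0.153% and 1.83% of all genes that passed, so the lack of calls does not set them apart. The regulator sox9a, which switches on type II collagen genes in cartilage, had 0.21, 2.15 and 0.23 CPM in control and 0.39, 5.58 and 0.44 in eif5a1/2 libraries, with replicate 2 high in both. Outside replicate 2 these levels are near the floor: in control replicate 1, 1 read stands for 0.07 CPM. Scaled by library totals alone, the mmp2 difference between morpholino groups passed among the called genes of the lists. So did mmp13b, with the limit given above. The other 5 differences did not (edgeR, adjusted p from 0.105 to 0.266).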

How the data were processed

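PolyA RNA of whole zebrafish embryos (3 control, 3 dhps and 3 eif5a1/2 libraries) was analysed from the tables deposited by the authors. Per the file headers these hold estimated counts per gene, which are whole numbers for 91.4% to 93.9% of values, and TPM per gene. The authors' deposited comparison tables hold log2 fold changes with p-values and q-values, and for dhps against control also −log10 of the q-value. The genome build was GRCz11 per the submitters' processing notes; aligner, counter and strand setting, and so how reads shared by duplicate genes were assigned, are not stated in the material used.

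The estimated counts were rounded to whole numbers, where whole counts had been planned for. Genes were filtered with filterByExpr (17031 of 24614 kept, at least 99.8% of reads), scaled by TMM and tested with edgeR 4.0.16 in R 4.3.3, with 1 model over 9 libraries, 6 residual degrees of freedom and Benjamini-Hochberg adjustment over all tested genes (threshold 0.05); the procedure was tested on simulated data. No same-group libraries were duplicates. DESeq2 1.42.0 and limma-voom (limma 3.58.1) were alternatives. Gene length was estimated from the ratio of counts to TPM. Names and neighbours came from the NCBI table of assembly GRCz12tu (55 of 55 collagen IDs matched), and no coordinates are given.

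Deviations of same-numbered libraries correlated at 0.403, 0.760 and 0.318 between control and eif5a1/2, and at -0.337, -0.413 and 0.0988 between control and dhps and at -0.401, -0.286 and 0.121 between dhps and eif5a1/2. The numbers were taken to pair control with eif5a1/2 from these data and not from a label. Each same-number value exceeded 0.1, but this does not single out the pairs. Differently numbered libraries of these groups ranged from -0.679 to 0.597. The text names called collagens, the 4 of each class with the highest control TPM and called members of the lists; col9a3, col11a2, col8a1a and other genes given as examples were named after their values were seen. The members and lists were chosen with earlier results of these data known.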

Additional observations from a re-analysis of the deposited data

How the results depend on the processing

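No result reversed its called direction under the alternatives run. For dhps against control, 0 collagens passed in the model over 9 libraries. The replicate block gave 1, DESeq2 2, the length slope as a covariate 5, and an adjusted p under 0.1 gave 1. Leaving out 1 library gave 0 to 1. Each of these calls was lower in dhps. With the length covariate the median difference was -0.11 over the tested collagens and -0.16 over the cartilage and notochord class. For eif5a1/2 against control, also 0, DESeq2 gave 3 and the length covariate 8. The replicate block in the 6 libraries of these groups, added after seeing the data, gave 5. Leaving out 1 library gave 0 each time, as did the replicate block in the model over 9 libraries. For eif5a1/2 against dhps, with 1 call, scaling by library totals gave 0, DESeq2 6 and the length covariate 9. An adjusted p under 0.01 gave 0 and under 0.1 gave 4. Leaving out 1 library gave 0 to 1, and the replicate block 1. The cause of these moves was not tested, except that the 2 other thresholds change the count by construction. Apart from the block in the 6 libraries, the share of all genes called under these alternatives is not given here. These counts therefore do not show whether collagens were called more often than other genes. No fit of the negative-slope libraries alone could be made for dhps, which has none there. The positive-slope libraries hold 1 control and 1 eif5a1/2 library, so no count of calls is given for them. Scaling by library totals moved the median of all genes by 0.36 and 0.18 (log2) for dhps and eif5a1/2 against control; relative to that shift the cartilage and notochord median was -0.03 and -0.33. The 12 collagens with at most 80 reads each were not tested; of these, col4a1 had 0, 1 and 0 reads in control and 24, 5 and 7 in dhps libraries.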

Other observations

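The ceramide transfer genes that the symbol rule also selected were measured with the rest. The gene col4a3bpa stood at 7.72, 8.96 and 6.21 CPM in control, 14.2, 11.6 and 11.3 in dhps and 9.13, 13.4 and 9.16 in eif5a1/2 libraries, so control lay below both morpholino groups. It was not called in edgeR's test for dhps against control (0.69 ± 0.20, adjusted p = 0.131), while the authors' deposited table gives it a q-value of 0.042. Its relative col4a3bpb stood at 41.8 to 44.3 CPM in control and 32.9 to 36.0 in dhps libraries, without overlap and without a call.

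On the marker lists, barx1, a homeobox gene of the pharyngeal arches that form jaw cartilage, fell in dhps against control by 1.21 on the log2 scale (edgeR, SE 0.22, adjusted p = 0.0326), a call kept in 3 of 9 fits without 1 library. The gene nkx3.2, a homeobox gene of the jaw joint, was higher in eif5a1/2 than in dhps libraries by 0.79 ± 0.16 (edgeR, adjusted p = 0.0445), kept in 1 of 9 fits. Scaled by library totals alone, neither passed.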
